A study of Mus musculus with 6 samples.

Results

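The angiopoietin and Tie receptor system was taken as 5 genes, Angpt1, Angpt2, Tek, Tie1 and Ptprb, picked by symbol from a table of 51826 mouse genes. All 5 had 1 row each, and all 5 passed the filter on low counts. In GENCODE M21 (build GRCm38) Tek and Tie1 lie on chromosome 4, Angpt1 on chromosome 15, Angpt2 on chromosome 8 and Ptprb on chromosome 10. Bulk RNA sequencing had been run on ovaries of ICR mice, an outbred strain, in 6 libraries. They fell into 3 groups of 2: mice modelling ovarian hyperstimulation syndrome (OHSS) and given nintedanib, mice of the same model without the drug, and a group labelled COH, a name that the labels do not spell out. The sources used here give no hormone schedule, dose, time or age, and the labels name no genetic change in any group. Nintedanib (BIBF1120) is a small-molecule inhibitor of the receptor kinases for vascular endothelial, platelet-derived and fibroblast growth factors.

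Angiopoietins are secreted ligands of Tie2, the receptor kinase that Tek encodes and endothelial cells carry. Angpt1, made largely by cells around the vessel, activates Tie2 and keeps vessels tight. Angpt2, released by endothelial cells themselves, can block or weakly activate the same receptor and is linked with vessel leakage and remodelling. Tie1 is a related receptor kinase that pairs with Tie2 and tunes its signal. Ptprb encodes VE-PTP, an endothelial phosphatase that removes phosphate from Tie2. In the ovary, vessels grow into each corpus luteum and regress with it, and angiopoietins are produced in both phases.

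The libraries held 28498435 to 34716751 counts, which came to 72.1 to 74.0% of the reads but 144.3 to 148% of the read pairs, so 1 pair appears to be counted as 2 reads. Whether the 2 libraries of a group are from different animals is not stated, so p-values cover just the spread between samples and that spread may be technical. Markers of the labelled tissue were present in every library. Summed levels of the 6 granulosa markers ran from 2743 to 4355 CPM (a gene's count relative to the effective total of its library, on the usual edgeR scale), and those of the 7 oocyte markers from 164.8 to 310.1 CPM. In bulk ovary, fewer endothelial cells and less RNA per endothelial cell cannot be told apart. The members had 564 to 3313 counts per library, the lowest being 282 read pairs.

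Compared per length of annotated exon, the receptors were the most abundant members. Tie1 led with a median over the 6 libraries of 13.6 CPM per kb (range 10.4 to 15.3), a level above that of 77.8% of tested genes. Tek followed at 8.60 CPM per kb (range 7.23 to 10.2), and Tie1 exceeded it in all 6 libraries with ranges that did not meet. Angpt2 stood at 7.92 CPM per kb (range 6.34 to 9.05) and Ptprb at 6.92 CPM per kb (range 6.11 to 7.77). These neighbours did not separate, since Tek exceeded Angpt2 in 5 of 6 libraries and Angpt2 exceeded Ptprb in 4 of 6. Angpt1 was the least abundant at 4.35 CPM per kb (range 3.80 to 5.06), below Ptprb in all 6 libraries.

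The ligands differed in how closely their replicates agreed. Angpt1 (ENSMUSG00000022309), the Tie2 agonist, measured 25.1 and 26.3 CPM in OHSS with nintedanib, 21.7 and 23.3 CPM in OHSS, and 21.9 and 19.8 CPM in COH. Both nintedanib libraries were the highest of the 6, and OHSS overlapped COH. Its log2 fold change, positive where the group named first is higher, was 0.11 (SE 0.127) for OHSS against COH, 0.19 (SE 0.127) for OHSS with nintedanib against OHSS and 0.30 (SE 0.127) for OHSS with nintedanib against COH. The last of these had a 95% confidence interval of -0.02 to 0.62 and an edgeR adjusted p of 0.521. Gm17473, an annotated gene on the opposite strand, shares 737 exon bases with Angpt1, and the use of strand in counting is not given. That gene itself had 0 to 8 counts per library.

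Angpt2 (ENSMUSG00000031465), the context-dependent antagonist, measured 28.4 and 31.6 CPM in OHSS with nintedanib, 33.4 and 23.4 CPM in OHSS, and 28.2 and 30.1 CPM in COH. The highest and the lowest of the 6 values were both OHSS libraries, and all 3 groups overlapped. The OHSS replicates were 0.51 apart on the log2 scale, beside a counting error of 0.0994 if each pair is 1 molecule. The log2 fold change was -0.04 (SE 0.196, 95% interval -0.53 to 0.46) for OHSS against COH and 0.08 (SE 0.196, -0.41 to 0.57) for OHSS with nintedanib against OHSS. For OHSS with nintedanib against COH it was 0.04 (SE 0.196, -0.45 to 0.53). Without OHSS replicate 2 the first 2 of these were 0.19 and -0.15, and the libraries thus allow a difference of either sign. Angpt2 lies within the span of Mcph1 on the opposite strand, with 0 exon bases in common.

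The receptors were lowest in OHSS. Tie1 (ENSMUSG00000033191), the co-receptor, measured 69.9 and 75.0 CPM in OHSS with nintedanib, 51.0 and 54.0 CPM in OHSS, and 67.2 and 66.1 CPM in COH. Both OHSS libraries lay below the other 4, and the nintedanib libraries lay above both COH libraries. Group means (± SD, n = 2) were 72.5 ± 3.67 CPM in OHSS with nintedanib, 52.5 ± 2.16 CPM in OHSS and 66.6 ± 0.785 CPM in COH. Tek (ENSMUSG00000006386), the angiopoietin receptor, gave the same order of groups. It measured 47.9 and 45.4 CPM in OHSS with nintedanib, 34.1 and 36.8 CPM in OHSS, and 39.3 and 41.7 CPM in COH. No group overlapped another for Tek. Taken 2 at a time, groups failed to overlap for 36.2 to 45% of all genes. How often all 3 groups were apart over all genes was not counted, here or below. Group means of Tek (± SD, n = 2) were 46.7 ± 1.81 CPM in OHSS with nintedanib, 35.5 ± 1.94 CPM in OHSS and 40.5 ± 1.67 CPM in COH.

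RefSeq promoter windows are shown for Tek and Tie1, the only members that had one. The windows were not chosen by profile, though Tek and Tie1 had the closest profiles of any pair of members. The root mean square difference of their centred log2 CPM over the 6 libraries was 0.0874, against 0.0944 to 0.236 for the other pairs. Each window holds the 250 bases before the start of the gene in build GRCm38.p6, and capitals mark the letters GGAA or TTCC, the core that ETS-family factors of endothelial cells bind. The Tek window is chr4:94739039-94739288 on the plus strand, and the Tie1 window is chr4:118489850-118490099 on the minus strand.
Tek: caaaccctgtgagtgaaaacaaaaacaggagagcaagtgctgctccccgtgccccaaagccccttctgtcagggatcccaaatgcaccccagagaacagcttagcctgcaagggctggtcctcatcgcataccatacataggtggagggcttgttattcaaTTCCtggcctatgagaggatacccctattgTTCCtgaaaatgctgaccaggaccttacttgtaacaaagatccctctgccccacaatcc
Tie1: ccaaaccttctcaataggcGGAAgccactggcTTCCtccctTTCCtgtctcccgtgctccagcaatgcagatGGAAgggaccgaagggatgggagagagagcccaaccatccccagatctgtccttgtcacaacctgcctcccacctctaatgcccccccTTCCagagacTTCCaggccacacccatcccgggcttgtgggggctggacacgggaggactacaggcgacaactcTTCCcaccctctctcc
The Tie1 window held 7 matches to GGAA on either strand, and 3.82% of the 32536 promoter windows of this length held as many. The Tek window held 2, beside a median of 3 over all windows, 93.4% of which had a match. The longer form AGGAAG, which contains the core, matched 1 time in Tie1 and 0 times in Tek, and 29.6% of windows held it on either strand. The letters AGATAA, a form bound by GATA factors, were in neither window and in 9.97% of all windows. A match describes the letters only.

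**Figure D1:**
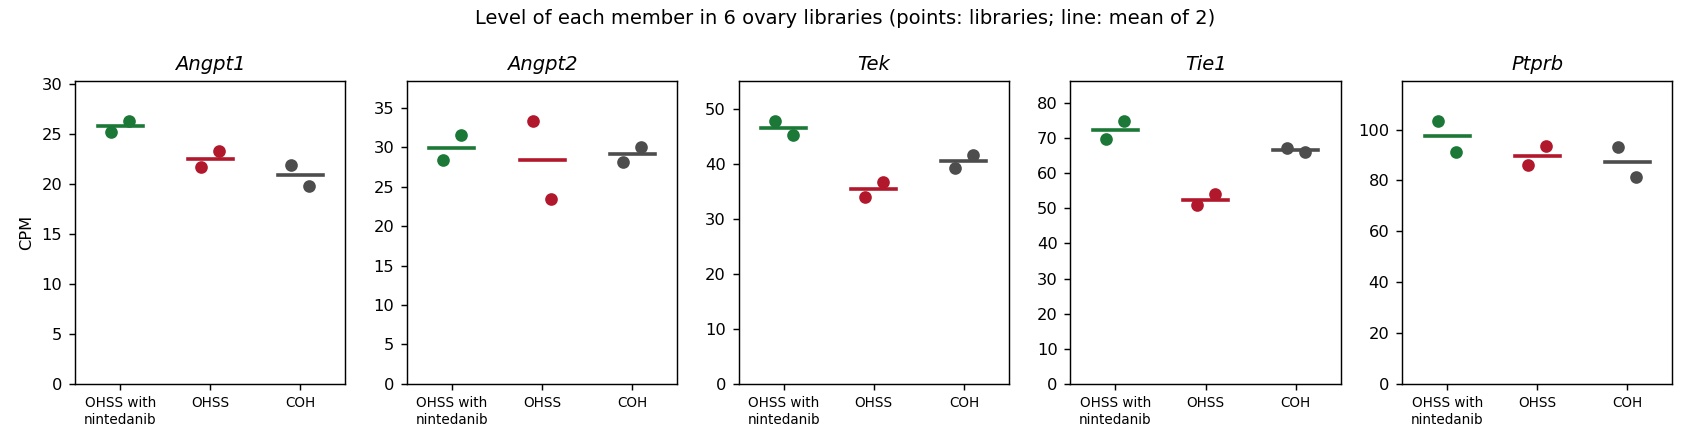
CPM (vertical axes, from 0) of each member in the 3 groups, with 1 point per library and a line at the mean of 2. Tie1 and Tek are lowest in both OHSS libraries, Angpt2 spans 23.4 to 33.4 CPM within OHSS, and the Ptprb groups overlap.

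Ptprb (ENSMUSG00000020154), the phosphatase that acts on Tie2, measured 103.6 and 91.3 CPM in OHSS with nintedanib, 85.9 and 93.5 CPM in OHSS, and 93.1 and 81.4 CPM in COH. All 3 groups overlapped. Its log2 fold change was 0.04 (SE 0.125, 95% interval -0.27 to 0.35) for OHSS against COH, 0.12 (SE 0.125, -0.20 to 0.43) for OHSS with nintedanib against OHSS and 0.16 (SE 0.125, -0.16 to 0.47) for OHSS with nintedanib against COH. The first was -0.023 when libraries were scaled by their size alone, so no direction is given for it.

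The first comparison asks how the members differ in the syndrome model. Tie1 averaged 0.34 lower in OHSS than in COH on the log2 scale (log2 fold change -0.34, SE 0.101, 95% interval -0.60 to -0.09), which is a fold of 0.788. For Tek the log2 fold change was -0.19 (SE 0.109, 95% interval -0.47 to 0.08), a fold of 0.875. Neither passed the quasi-likelihood test of edgeR, with p-values adjusted over all genes by Benjamini and Hochberg (adjusted p = 0.533 for Tie1 and 0.651 for Tek). That test called 0 of the 5 members, against 0.0105% of the 19027 genes tested. On simulated counts it recovered 18% of genes changed 2-fold, so smaller differences like those of the members could go uncalled. DESeq2 also called 0 members, against 1.89% of genes, and limma voom called 0 members and 0% of genes. At an unadjusted edgeR p under 0.05 stood 1 of 5 members, Tie1 (0.0168), on the lower side, against 8.82% of all genes, with 4.24% lower and 4.59% higher. For 2 of 5, Tie1 and Tek, both OHSS libraries lay below both COH libraries. Groups failed to overlap for 44.1% of all genes, 22.9% with OHSS below and 21.2% with OHSS above. The median log2 fold change was -0.04 over the members and -0.003 over all genes, with 2 members higher and 3 lower.

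OHSS with nintedanib against OHSS asks what accompanied the drug within the model. The receptors showed the largest differences of the members here. Tie1 had a log2 fold change of 0.47 (SE 0.101, 95% interval 0.21 to 0.72), a fold of 1.38. Tek had 0.40 (SE 0.109, 95% interval 0.12 to 0.67), a fold of 1.32. With edgeR the adjusted p was 0.638 for Tie1 and 0.653 for Tek, and 0 of 5 members were called, as with limma voom, against 0.00526% of genes tested. DESeq2 called 1 of 5, Tie1 (adjusted p = 0.0281), against 1.17% of genes, and gave Tek an adjusted p of 0.186. At an unadjusted edgeR p under 0.05 there were 2 of 5 members, both higher, against 7.42% of genes, with 3.95% higher and 3.47% lower. Tie1 ranked 141 and Tek 366 among 19027 genes ordered by that p. Both nintedanib libraries lay above both OHSS libraries for 3 of 5 members, Angpt1, Tek and Tie1. Groups failed to overlap for 36.2% of genes, 19.2% with nintedanib above and 16.9% below. All 5 members had the higher mean, with a median of 0.19 beside 0.01 over all genes.

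OHSS with nintedanib against COH asks whether drug-treated model ovaries differ from the COH ovaries. Tek differed by 0.20 (SE 0.109) and Tie1 by 0.12 (SE 0.101) in log2 fold change, with 95% intervals of -0.07 to 0.48 and -0.13 to 0.37. edgeR called 0 of 5 members, against 0.0263% of genes (0.021% higher and 0.00526% lower), limma voom 0, against 0.0105%, and DESeq2 0, against 2.36%. At an unadjusted edgeR p under 0.05 stood 0 of 5, against 9.7% of genes, with 5.62% higher and 4.08% lower. For 3 of 5, Angpt1, Tek and Tie1, both nintedanib libraries lay above both COH libraries. Groups failed to overlap for 45% of genes, 22.3% with nintedanib above and 22.7% below. The median log2 fold change was 0.16 over the members and -0.001 over all genes. The 3 comparisons share libraries in pairs, so their fold changes are not independent.

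**Figure D2:**
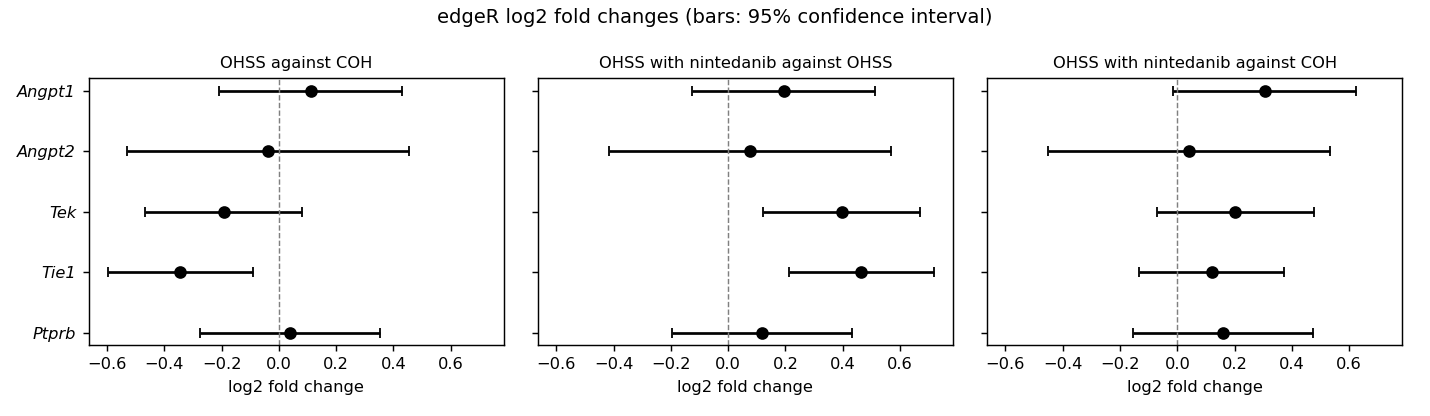
edgeR log2 fold change (horizontal axis) of each member in the 3 comparisons, with bars for the 95% confidence interval and a dashed line at 0. The interval lies off 0 for Tie1 in OHSS against COH, and for Tek and Tie1 in OHSS with nintedanib against OHSS; these intervals are not adjusted for the number of genes.

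Ratios within a library do not depend on how libraries are scaled. The count of Angpt2 over that of Angpt1 was 1.13 and 1.20 in OHSS with nintedanib, 1.54 and 1.00 in OHSS, and 1.29 and 1.52 in COH. The OHSS libraries spanned the other 4 values, so a shift in the balance of the ligands was not detectable between OHSS and COH. The nintedanib libraries both lay under the COH libraries, with a difference in mean log2 ratio of -0.27. Ptprb over Tek was 2.16 and 2.01 in OHSS with nintedanib, 2.52 and 2.54 in OHSS, and 2.37 and 1.95 in COH. Both OHSS libraries were the highest, by 0.24 in mean log2 ratio over COH, and the nintedanib mean differed from that of OHSS by -0.28. Tie1 over Tek was 1.46 and 1.65 in OHSS with nintedanib, 1.495 and 1.467 in OHSS, and 1.71 and 1.58 in COH. The nintedanib libraries spanned OHSS, while OHSS lay below COH by 0.15. An exact two-sided permutation test of 2 libraries against 2 cannot go below p = 0.333, which was the value wherever groups did not overlap.

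**Figure D3:**
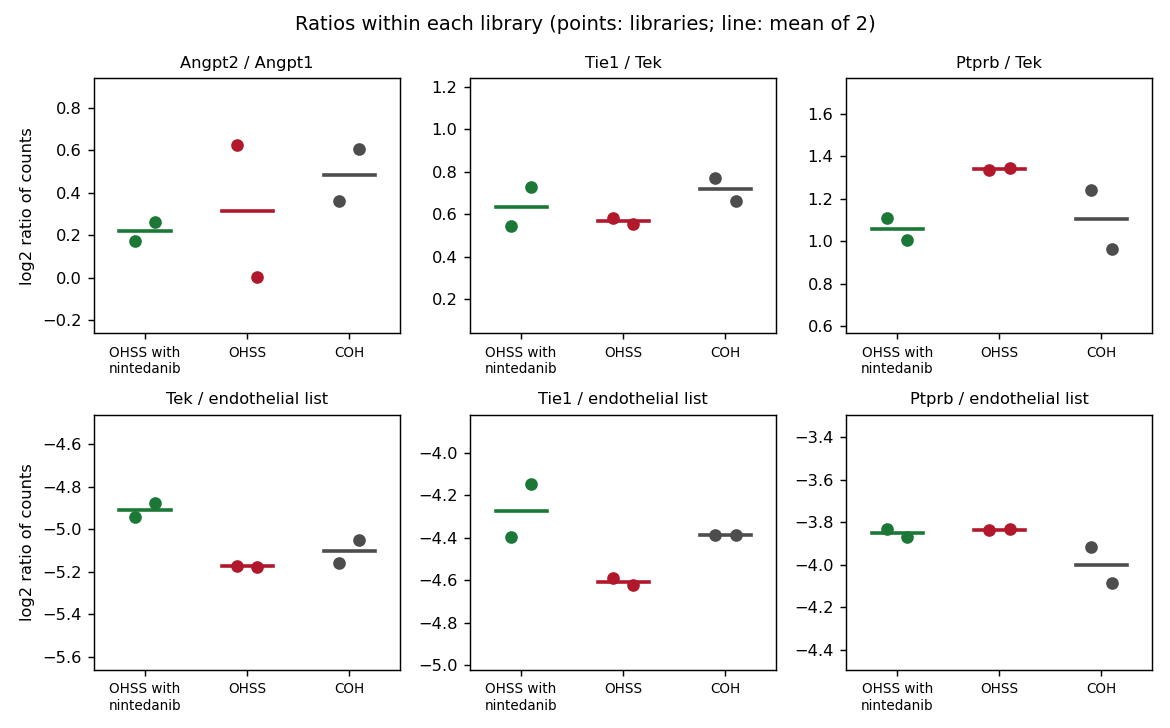
Log2 ratio of counts within each library (vertical axes, all spanning the same range) for 3 pairs of members and for Tek, Tie1 and Ptprb over the summed endothelial list, with 1 point per library and a line at the mean of 2. The OHSS libraries are highest for Ptprb over Tek and lowest for Tie1 over the endothelial list.

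Most endothelial markers, like the receptors, had lower means in OHSS than in COH and higher means with nintedanib than in OHSS. A list of 20 endothelial genes that holds none of the members summed to 1474 and 1332 CPM in OHSS with nintedanib, 1229 and 1332 CPM in OHSS, and 1406 and 1382 CPM in COH. Its median log2 fold change was -0.22 for OHSS against COH, with 15 of 20 means lower and 3 lower at an unadjusted p under 0.05, and 0.27 for OHSS with nintedanib against OHSS, with 17 of 20 higher and 5 higher at that p. Over all genes these medians were -0.003 and 0.01, and the shares at that p were 4.24% lower and 3.95% higher. Called by edgeR were 0 of the 20 in every comparison. DESeq2 called 1 for OHSS against COH, the junction gene Cldn5 (log2 fold change -0.62, adjusted p = 0.00674), against 1.89% of all genes. It called 1 for OHSS with nintedanib against OHSS, Cdh5, against 1.17%. For OHSS with nintedanib against COH it called 0, against 2.36%. Other lists also had lower means in OHSS than in COH: 8 of 8 early response genes (median -1.11, 3 called by DESeq2), 7 of 7 oocyte markers (median -0.51) and 5 of 5 erythroid markers (median -0.86). For OHSS with nintedanib against OHSS, 7 of 8, 6 of 7 and 4 of 5 of these means were higher. The 6 luteal markers went the other way. In OHSS against COH, 5 of their means were higher and 1 lower (median 0.34, 1 called by DESeq2). In OHSS with nintedanib against OHSS, 6 of 6 were lower (median -0.29). The erythroid markers summed to 156.3 and 84.0 CPM in OHSS with nintedanib, 60.4 and 172.6 CPM in OHSS, and 219.5 and 217.6 CPM in COH. The part of these lists in the levels of the receptors was not tested. Cdh5, the adhesion protein of endothelial junctions, measured 178 and 206.7 CPM in OHSS with nintedanib, 121.3 and 135 CPM in OHSS, and 142.8 and 161.4 CPM in COH. Its groups did not overlap, in the same order as for Tek. Pecam1, another endothelial adhesion protein, measured 106 and 98.8 CPM in OHSS with nintedanib, 74.3 and 112 CPM in OHSS, and 108.2 and 106.2 CPM in COH. The OHSS libraries of Pecam1 thus spanned all the others.

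Set against the summed endothelial list within each library, Tie1 still separated OHSS from both other groups. It came to 0.0474 and 0.0563 of that sum in OHSS with nintedanib, 0.0415 and 0.0406 in OHSS, and 0.0478 and 0.0478 in COH. The mean log2 ratio differed by -0.22 for OHSS against COH and by 0.33 for OHSS with nintedanib against OHSS. With the list averaged on the log scale, so that no abundant gene dominates, these were -0.13 and 0.23. Clec14a, an endothelial surface protein picked after its values were seen, bears on the sum: it measured 182.9 and 78.5 CPM in OHSS with nintedanib, 152.7 and 241.7 CPM in OHSS, and 186.8 and 156.1 CPM in COH. Tek over the same sum was 0.0325 and 0.0341 in OHSS with nintedanib, 0.0277 and 0.0277 in OHSS, and 0.0280 and 0.0302 in COH. For Tek the difference was 0.27 for OHSS with nintedanib against OHSS and -0.07 for OHSS against COH. With the list averaged on the log scale these were 0.16 and 0.022, so the second turned sign. Ptprb over the sum was 0.0703 and 0.0685 in OHSS with nintedanib, 0.0699 and 0.0702 in OHSS, and 0.0662 and 0.0589 in COH, and its difference between the first 2 groups was -0.01.

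**Figure D4:**
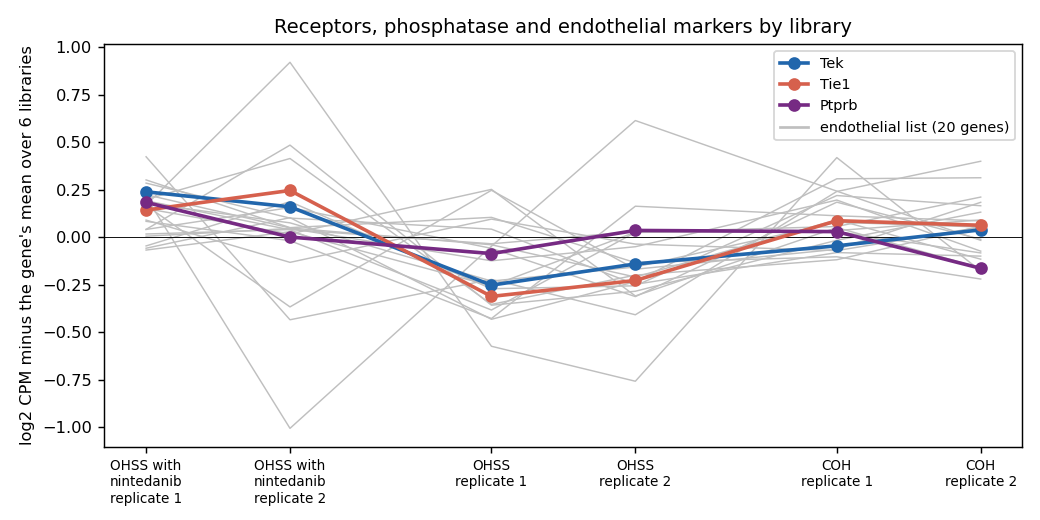
Log2 CPM minus each gene's own mean over the 6 libraries (vertical axis) for Tek, Tie1 and Ptprb (coloured) and the 20 genes of the endothelial list (grey), with libraries on the horizontal axis. Tek and Tie1 lie below 0 in both OHSS libraries and above 0 in both nintedanib libraries, and Ptprb lies at -0.09 and 0.04 in OHSS.

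Cells that surround vessels are a source of Angpt1, so mural markers were set beside it. The 11 pericyte and smooth muscle genes summed to 1690 and 1865 CPM in OHSS with nintedanib, 1891 and 1885 CPM in OHSS, and 1848 and 1789 CPM in COH. Acta2, a smooth muscle gene, was the most abundant of them, averaging 579.7, 602.3 and 598.3 CPM in these groups, so the sum says little of pericytes. Over the 11 genes the median log2 fold change was 0.03, -0.06 and -0.04 in the 3 comparisons. Pdgfrb, a receptor of pericytes, averaged (± SD, n = 2) 175.2 ± 51.2 CPM in OHSS with nintedanib, 204 ± 46.7 CPM in OHSS and 257.2 ± 0.381 CPM in COH. Rgs5, a pericyte regulator of G-protein signals, averaged 193.2 ± 11.9 CPM in OHSS with nintedanib, 160.6 ± 26.0 CPM in OHSS and 150.6 ± 17.0 CPM in COH. Of the 11 mural means, 3 were higher and 8 lower in OHSS with nintedanib than in OHSS, with 0 called by edgeR or DESeq2. The lowest unadjusted edgeR p among them, 0.00899 in the model fitted over all genes, was that of Kcnj8, a pericyte potassium channel picked after its values were seen. It measured 12.8 and 9.29 CPM in OHSS with nintedanib, 18.2 and 20.4 CPM in OHSS, and 17.4 and 15.4 CPM in COH, lower in both nintedanib libraries, where Angpt1 was higher. Rgs5 and Abcc9 of the same list were instead highest in both nintedanib libraries, as Angpt1 was. Abcc9 measured 81.0 and 72.0 CPM there, 68.3 and 50.7 CPM in OHSS, and 54.4 and 70.4 CPM in COH. Of the 11 mural genes, 2 lay wholly above OHSS with nintedanib and 2 wholly below, against 19.2% and 16.9% of all genes. Platelets store Angpt1, and their 4 markers summed to at most 14.1 CPM in any library. The 7 lymphatic endothelial markers, whose cells also carry Tie receptors, summed to 211.9 to 349.8 CPM. The 6 macrophage markers, a lineage with Tie2-bearing members, summed to 207.1 and 166.8 CPM in OHSS with nintedanib, 332.7 and 275 CPM in OHSS, and 377.3 and 412.4 CPM in COH. Lyz2 was the most abundant of the 6, at 82.2 and 50.7, 166.7 and 137.4, and 239.5 and 262.1 CPM in the same order. Of the 6 macrophage means, 4 were higher and 2 lower in OHSS than in COH, and 6 were lower in OHSS with nintedanib than in OHSS. The part of these cells in the levels of the members was not tested.

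Of 29 other genes of the pathway, 28 passed the filter and Grb7, an adaptor with 0 to 14 counts per library, did not. edgeR called 0 of the 28 in each comparison. At an unadjusted p under 0.05 there were 0 for OHSS against COH, against 8.82% of all genes. There were 4 higher and 0 lower for OHSS with nintedanib against OHSS, against 3.95% and 3.47% of all genes. For OHSS with nintedanib against COH there were 2 higher and 0 lower, against 5.62% and 4.08%. DESeq2 called 0 of 28 in the first and the last of these, against 1.89% and 2.36% of all genes. It called 1, Cdh5 (adjusted p = 0.0491), for OHSS with nintedanib against OHSS, against 1.17%. Cdh5 and Kdr are in the endothelial list too, so this is the same call as given there. The median log2 fold change of the list was -0.08, 0.16 and 0.06 in the same order. Among the other ligands, Angpt4, a further angiopoietin, measured 30.6 and 13.1 CPM in OHSS with nintedanib, 15.6 and 10.96 CPM in OHSS, and 16.2 and 9.39 CPM in COH. Replicate 1 of OHSS with nintedanib was the highest by far, and all 3 groups overlapped. Svep1, a matrix protein that binds Tie1, averaged (± SD, n = 2) 12.3 ± 4.71 CPM in OHSS with nintedanib, 15.1 ± 2.26 CPM in OHSS and 13.7 ± 1.14 CPM in COH.

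Downstream of Tie2, kinase signalling keeps the transcription factor Foxo1 out of the nucleus, and Foxo1 in turn activates Angpt2. Foxo1 measured 197.2 and 389.9 CPM in OHSS with nintedanib, 159.6 and 163.2 CPM in OHSS, and 152.6 and 165.1 CPM in COH. Both nintedanib libraries lay above the rest, replicate 2 by far the most, and they averaged 0.86 above OHSS on the log2 scale (SE 0.313, edgeR adjusted p = 0.654). Grb14, an adaptor that binds activated Tie2, was likewise highest in nintedanib replicate 2, at 120 and 286.4 CPM in OHSS with nintedanib, 84.7 and 95 CPM in OHSS, and 100.4 and 115.5 CPM in COH. Its OHSS libraries lay below both COH libraries, whereas those of Foxo1 overlapped COH. Foxo1 and Grb14 are not restricted to endothelium. Granulosa markers summed to 4355 and 3804 CPM in OHSS with nintedanib, 2934 and 2777 CPM in OHSS, and 2855 and 2743 CPM in COH, with 6 of 6 means higher in OHSS with nintedanib than in OHSS. The 8 early response genes summed to 650.6 and 1829 CPM in OHSS with nintedanib, 542.9 and 700.8 CPM in OHSS, and 1012 and 1423 CPM in COH, so that nintedanib replicate 2 was the highest, as for Foxo1 and Grb14. The granulosa markers Fshr (17.2 and 53.5 CPM in OHSS with nintedanib) and Cyp19a1 (62.1 and 121.6 CPM) were highest in that library too. Inha, the largest part of the granulosa sum at 3558 and 2879 CPM there, and Foxl2 were highest in nintedanib replicate 1. Amh and Inhbb were highest in COH replicate 1. The part of either list in Foxo1 and Grb14 was not tested. Nos3, the endothelial nitric oxide synthase that Tie2 signalling activates, measured 41.8 and 51.9 CPM in OHSS with nintedanib, 33.5 and 32.9 CPM in OHSS, and 40.0 and 39.6 CPM in COH. Its groups did not overlap, and it was lowest in OHSS like Tek. Between OHSS with nintedanib and OHSS it differed by 0.50 on the log2 scale (SE 0.136, edgeR adjusted p = 0.653). Cdh5, a junction protein that VE-PTP dephosphorylates, differed by 0.59 (SE 0.129, edgeR adjusted p = 0.638) there. Dok2, a docking adaptor of Tie2, stood at (± SD, n = 2) 4.65 ± 2.46 CPM in OHSS with nintedanib, 3.88 ± 0.209 CPM in OHSS and 3.65 ± 0.449 CPM in COH.

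**Figure D5:**
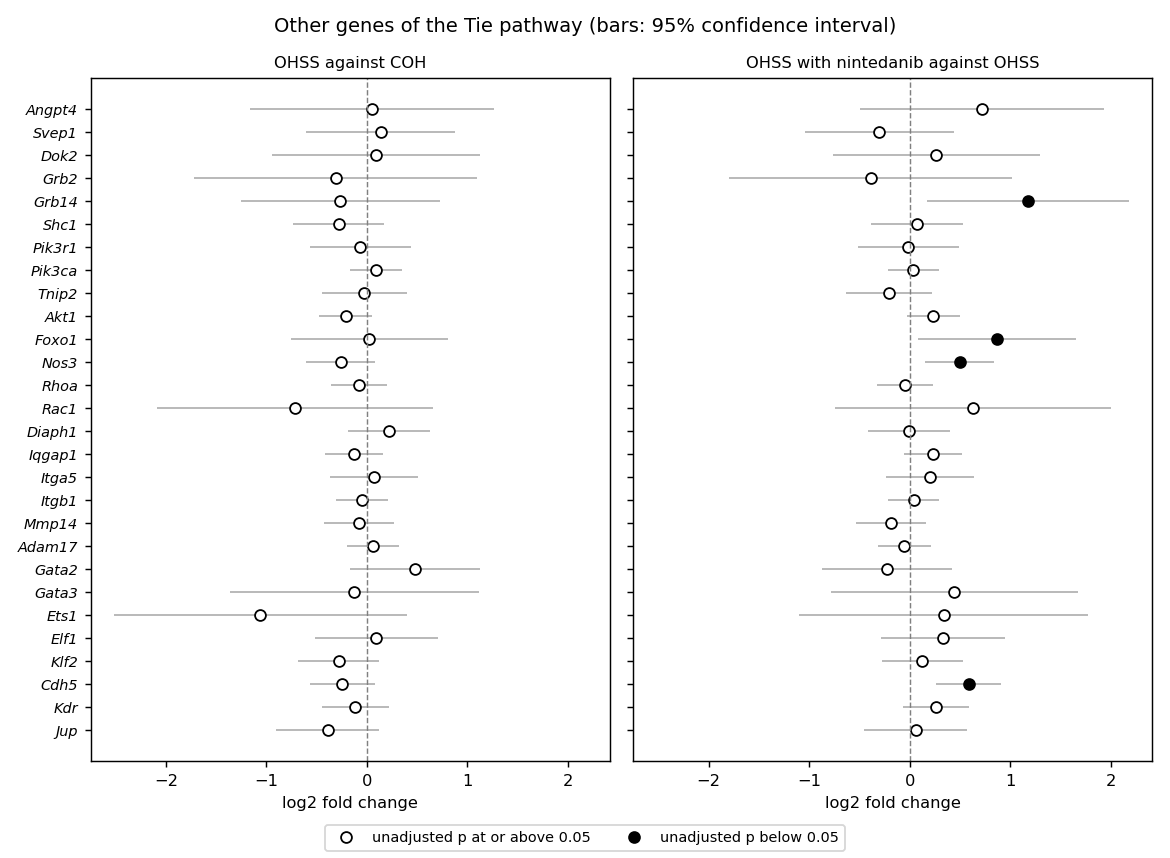
edgeR log2 fold change (horizontal axis) of the 28 tested pathway genes for OHSS against COH and for OHSS with nintedanib against OHSS, with bars for the 95% confidence interval and filled points for an unadjusted p under 0.05. Filled points are Grb14, Foxo1, Nos3 and Cdh5, all in the panel of OHSS with nintedanib against OHSS.

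The genes with profiles most like those of the members were listed by the root mean square difference of centred log2 CPM over the 6 libraries, among 11501 named genes of at least 5 CPM. Tek was nearest to Arhgap27 (0.0192), Rabl3 and Pkia, and Tie1 to Itpkb (0.0275), Cbx2 and Lsm5. Angpt1 was nearest to Surf2 (0.0248), Hpgd and Polk, Angpt2 to Jdp2 (0.0363), Acadl and Rhog, and Ptprb to Sco1 (0.0212), Rad54l2 and Ppm1f. Profiles of 6 points are easily matched: 90 genes lay within 0.1 of Tek, 77 of Tie1, 172 of Angpt2, 459 of Angpt1 and 578 of Ptprb. Of the 20 endothelial genes, 1 lay within 0.1 of Tek, 1 of Tie1 and 1 of Ptprb. The members' own root mean square deviation from their means ran from 0.108 for Ptprb to 0.201 for Tie1.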

How the data were processed

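The deposited table gives raw counts per gene and library, and the deposited read summaries give reads, lengths and base qualities. Per the submitters' processing notes, HISAT2 2.1.0, StringTie 1.3.3b, Trimmomatic 0.36 and build mm8 were used, with no roles given. Counting program, annotation release, strand use and treatment of multi-mapping reads are not stated, so reads of overlapping or near-identical genes may be split. Groups and replicate numbers came from sample titles. Genes were filtered with filterByExpr, which left 19027, and scaled by TMM (factors 0.961 to 1.03). The test was edgeR 4.0.16's quasi-likelihood F test in 1 fit of 3 groups (R 4.3.3, 3 residual degrees of freedom), with Benjamini-Hochberg adjustment over all genes and a threshold of 0.05. The test was first checked on simulated counts, where it recovered 18% of genes changed 2-fold and 95% of those changed 4-fold. Standard errors came from the F statistic. Ratios used counts plus 0.5. Lengths are merged exons of GENCODE M21 (GRCm38), matched by ID for 51633 of 51826 genes and used only to compare levels between genes. Promoters come from RefSeq, where 2 of the 5 members had a window. Alternatives were other scalings and filters, DESeq2 1.42.0, limma voom (limma 3.58.1), a fit of 2 groups, a replicate block and each library left out. Genes are named by a rule: all members, pathway genes with an unadjusted p under 0.05 and a fixed set of others. The members and lists were chosen with earlier results of these data known.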

Additional observations from a re-analysis of the deposited data

How the results depend on the processing

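The log2 fold changes of Tek, Tie1 and Angpt1 kept their sign in every comparison under the 15 alternatives run, and 0 members were called by any of them other than DESeq2, which called 1, Tie1, for OHSS with nintedanib against OHSS (log2 fold change 0.45). With each library left out in turn the edgeR adjusted p of Tie1 in that comparison ran from 0.307 to 0.881; leaving out a library of either group compared leaves 1 library, which is then assumed to vary like the other groups, so this range says little of how stable the value is. Sign turned for Ptprb in OHSS against COH with library size only (-0.023) and with a library left out (-0.050 to 0.14). For Angpt2 the values with a library left out were -0.30 to 0.19 for OHSS against COH, -0.15 to 0.34 for OHSS with nintedanib against OHSS and -0.038 to 0.11 for OHSS with nintedanib against COH.

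Genes called over all, 2, 1 and 5 in the 3 comparisons in that order, came to 360, 223 and 449 with DESeq2. No filter gave 4 and 2 in the first 2. limma voom gave 0 in the first, with 1585 at an unadjusted p under 0.05, and 2 in the last. A fit of only the 2 groups compared gave 0, 0 and 2, with 1864 and 1023 at an unadjusted p under 0.05 in the first 2. With 1 library left out these counts ran from 0 to 2, from 0 to 30 and from 0 to 53, the highest without nintedanib replicate 1 for the last 2.

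Replicate numbers came from sample titles and were not taken as pairs in the main fit. Same-numbered libraries of 2 groups had deviations correlated at -0.02, 0.08 and 0.002 over 15519 genes. These values show no strong shared shift but cannot tell whether samples were paired. A replicate block gave 1, 0 and 2 genes called and 0 members, with 1242 genes at an unadjusted p under 0.05 in the second.

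Ratios with small differences turned sign. Over the endothelial list averaged on the log scale, Angpt1 gave -0.040 for OHSS with nintedanib against OHSS and Tek 0.022 for OHSS against COH. With Cdh5, Kdr and Flt1 taken off that list, Angpt2 gave 0.051 and Ptprb 0.070 for OHSS with nintedanib against OHSS. With a library left out, Angpt2 over Angpt1 ran from -0.48 to 0.14 for OHSS against COH and from -0.41 to 0.21 for OHSS with nintedanib against OHSS. Tie1 over Tek ran from -0.023 to 0.16 for OHSS with nintedanib against OHSS and from -0.17 to 0.0078 for OHSS with nintedanib against COH, and Ptprb over Tek from -0.18 to 0.10 for OHSS with nintedanib against COH too. Over the endothelial list, Angpt2 ran from -0.25 to 0.38, -0.35 to 0.28 and -0.12 to 0.18 in the 3 comparisons. For OHSS with nintedanib against OHSS, Angpt1 ran from -0.043 to 0.17 and Ptprb from -0.032 to 0.0047, and for OHSS with nintedanib against COH, Tie1 ran from -0.012 to 0.24. The cause was not tested.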

Other observations

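A few pathway genes varied over the 6 libraries by more than the members did, and those named here were chosen after their values were seen. Rac1, a small GTPase that angiopoietin signalling engages at endothelial junctions, measured 455.3 and 440.8 CPM in OHSS with nintedanib, 451.6 and 128.6 CPM in OHSS, and 450.4 and 502.9 CPM in COH. OHSS replicate 2 thus lay far below the other 5 libraries, which were close together. Grb2, an adaptor of receptor kinases, measured 51.8 and 101.3 CPM in OHSS with nintedanib, 50.3 and 150.1 CPM in OHSS, and 117.2 and 131.5 CPM in COH, and was lowest in nintedanib replicate 1 and OHSS replicate 1. Ets1, a transcription factor of endothelium and other cells, measured 27.2 and 72.8 CPM in OHSS with nintedanib, 55.8 and 23.4 CPM in OHSS, and 85.9 and 79.4 CPM in COH, and was lowest in nintedanib replicate 1 and OHSS replicate 2. The highest library exceeded the lowest 3.91-fold for Rac1, 2.98-fold for Grb2 and 3.67-fold for Ets1, against 1.27-fold to 1.47-fold for the 5 members. Among 4779 genes with a mean of at least 50 CPM, 115 (2.41%) had 1 library more than 2-fold from the nearest of the 5 others. Such libraries were most often nintedanib replicate 2, low for 27 genes and high for 18, and COH replicate 2, low for 22 and high for 0.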
